A study of Chlamydomonas reinhardtii with 2 samples.

Results

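The photosynthesis genes carried on the plastid genome of the unicellular green alga Chlamydomonas reinhardtii were examined in 1 RNA-seq library each of the wild-type strains CC5325 and CC125. Members were the reference rows placed on the plastome whose symbol begins with psa, psb, pet, atp, rbcL, chl, ccs, cem, ycf3 or ycf4. This gave 39 of 17693 reference rows. Both copies of psbA were added up as 1 gene, which left 38 members. Those 38 hold the 3 exons of psaA as separate rows, so they stand for 36 genes. The files name ycf3 and ycf4 as pafI and pafII, and those genes are therefore not members. The other 35 plastid rows, mostly genes for ribosomal proteins and RNA polymerase, served for comparison. Among these rows are pafI and pafII, and also ycf12, whose symbol the rule does not take.

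Both strains are labelled wild type, and no treatment, transgene or mutation is given for either. Cultures of each were kept in TAP medium, an acetate medium, on a shaker at 25 °C under 20 μmol photons per m2 per s. Each strain has 1 library, so differences between strains stand without replicates and no p-values are given. Intervals cover counting error only, at 95%. They take the mates of a read pair as separate reads, so they are too narrow where both mates lie in a gene. Fewer plastid transcripts per cell and a smaller plastid share of the extracted RNA cannot be told apart in such libraries.

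The plastid is a former cyanobacterium that kept a small genome, from which core subunits of the photosynthetic complexes are still made. Photosystem II splits water, the cytochrome b6f complex passes electrons on, photosystem I reduces ferredoxin, and the ATP synthase uses the proton gradient so built. Each complex also holds subunits made from nuclear genes. Plastid transcripts carry no stable poly(A) tail, and neighbouring genes are often transcribed together, and their levels depend in part on RNA processing and on stability, which nuclear factors control gene by gene. The labels name depletion of ribosomal RNA in the protocol and polyA RNA as the molecule. Which of the descriptions holds for plastid RNA was not tested.

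Few reads lay in these genes. Coverage, the mean number of reads per base listed for each gene, summed to 74.1 over the 38 members in CC5325 and to 75.9 in CC125. Over the gene spans, with 150 bases a read, no more than 1301 (CC5325) and 2087 (CC125) reads stand behind these sums, of which 410 and 345 lay outside psbA. In 23 members both libraries held fewer than 10 reads, and in 7 both held at least 10. The listed TPM came to 0.392 per unit of coverage in CC5325 and to 0.868 in CC125, as medians over reference genes. Coverage times this factor is called TPM from coverage here, and ratios between strains use it unless stated. Because the factors differ 2.22-fold, equal coverage becomes a value 2.22-fold higher in CC125. Total aligned bases, worked out from the ratio of coverage to FPKM, were 5.81 Gb and 3.18 Gb.

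In both libraries the photosynthesis genes had higher coverage than the other plastid genes, a comparison within each library that needs no scale between them. Median coverage was 0.687 reads per base over 38 members against 0.103 over 35 other rows in CC5325, a ratio of 6.68. In CC125 the medians were 0.657 and 0.111, a ratio of 5.90. Coverage reached 1 read per base in 17 members and 3 other rows in CC5325, and in 10 members and 2 other rows in CC125. Outside the large assembled loci described next the ratio was 5.87 in CC5325 and 37.6 in CC125, the latter over a median of only 0.00935 for the other genes. Inside them it was 11.5 and 4.84. Both CC125 medians over all rows lie at levels that many genes of one strand share in that library, as given below. The median of the members lies at the plus-strand level and that of the other genes at the minus-strand level. The part of strand in the ratio of 5.90 was not tested.

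psbA, whose product D1 is a core protein of photosystem II, was the highest member in both libraries. Its coverage summed over both copies was 20.0 in CC5325 and 39.1 in CC125, or 27.0% and 51.5% of the summed coverage of all members. rbcL, for the large subunit of Rubisco, ranked 3 in both, and atpH, for the ring subunit of the ATP synthase, ranked 4 in both. The order differed at rank 2, held by psbE in CC5325 and psbD in CC125. Of the 8 highest members of each library, 4 were common to both, namely psbA, psbD, rbcL and atpH. The levels of rbcL and atpH in CC5325, at 5.55 and 5.33 reads per base, rest on at most 59 and 45 reads and lie within counting error of each other. psaJ, a small subunit of photosystem I, and petL, a small subunit of cytochrome b6f, were listed at 0 in both libraries.

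**Figure D1:**
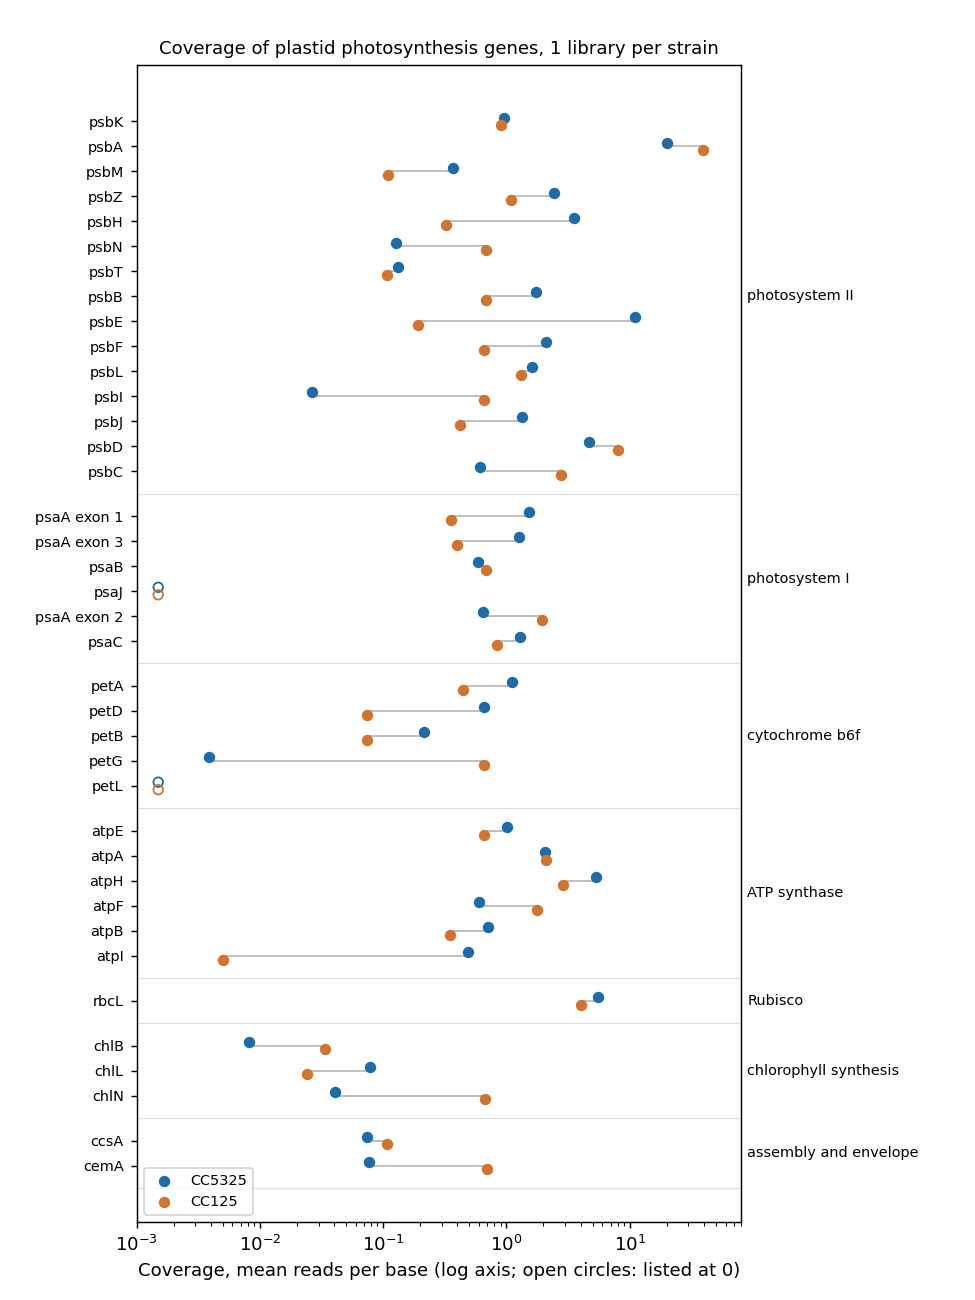
Coverage in mean reads per base (log axis) of the 38 members in CC5325 (blue) and CC125 (orange), 1 library per strain, grouped by complex, with a grey line joining the values of a member and open circles for values listed at 0. psbA lies highest in both libraries, at 20.0 and 39.1, psbE is far apart at 11.1 and 0.191, and psbF, petG, psbI, cemA, chlN, psbN and psaB all lie near 0.67 in CC125.

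Assembled loci longer than 5000 bases had their outer ends on either side of the middle of the plastid map. In CC5325 they were a plus-strand locus at 37161 to 155091 and a minus-strand locus at 93463 to 154152, listed at coverages of 1372 and 18504. In CC125 there was 1, on the plus strand at 37157 to 155095, at 4508. Where the reads of a locus lie between its outer ends is not known. Genes inside reached no more than 11.6 reads per base in CC5325 and 25.6 in CC125, each a psbA copy. At least 50% of the span of 22 members lay inside these loci and 16 members lay outside. Inside were 11 members on the plus strand, 10 on the minus strand, and psbA with 1 copy on each.

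Within this stretch the CC125 library showed a common level on each strand. 10 plus-strand genes, 7 of them members, had no assembled locus with their own start and end, psbA apart. Their coverage in CC125 lay between 0.657 and 0.698. The members among them were psbN, psbF, petG, psaB, psbI, cemA and chlN, from 0.657 to 0.690, and rps3 and rpoC2, which are no members, stood at 0.698 and 0.695. The coefficient of variation over the 10 genes was 2.29%. Their spans run from 425 to 9842 bases, so that at most 1.87 to 45.6 reads would stand behind each value, with a counting error of 14.8% to 73.1% had they been independent reads. The spread was thus below the smallest of these counting errors, and counting intervals are not used for these values. In CC5325 the same 10 genes ran from 0.00390 to 2.12, a 542-fold range. The lowest, petG, had 0.018 of a read there and the highest, psbF, at most 6.95 reads, so this range has a large counting error.

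The minus strand had a lower common level in CC125. 13 minus-strand genes without an own locus lay between 0.107 and 0.167, with a median of 0.112. psbM, ccsA and psbT, the 3 members among them, stood at 0.110, 0.108 and 0.107. In CC5325 these 3 stood at 0.372, 0.0744 and 0.133. Outside the large loci no such level appeared: in CC125 the 8 plus-strand members without an own locus ran from 0 to 0.906 and the 3 minus-strand ones from 0 to 0.0740. Of the 7 plus-strand members at the common level 6 had a lower coverage in CC5325, with psbF the exception, and of the 3 minus-strand ones ccsA alone did. Members at the common level were no higher than the other genes there. Their medians in CC125 were 0.672 over 7 members against 0.695 over 3 others on the plus strand, and 0.108 over 3 members against 0.114 over 10 others on the minus strand. What sets the common level was not tested.

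**Figure D2:**
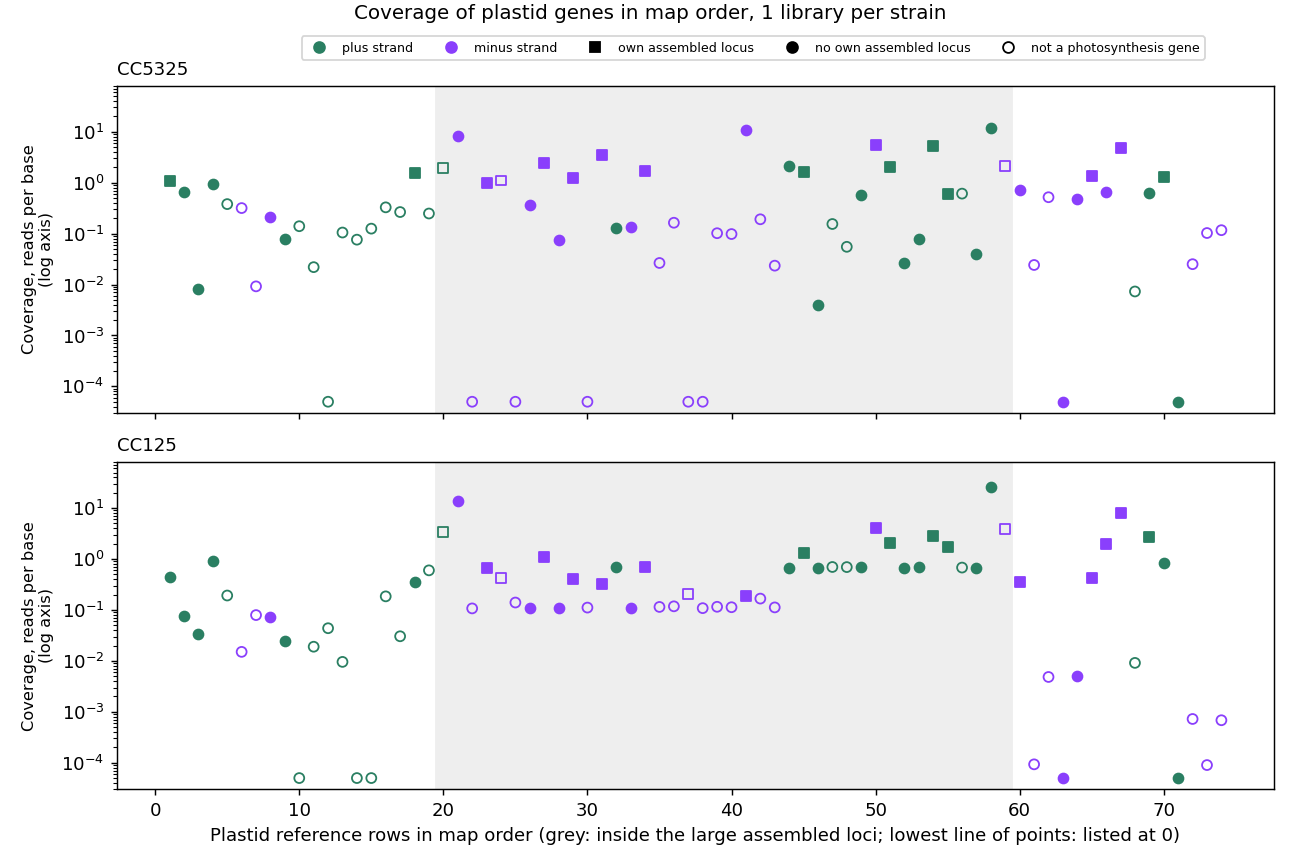
Coverage in reads per base (log axis) of all plastid reference rows in map order, CC5325 above and CC125 below, green for plus and violet for minus strand, squares for genes with their own assembled locus, and grey for the stretch inside the large assembled loci. Filled symbols are members, and the open ones include pafI, pafII and ycf12. In CC125 the circles in the grey stretch form a line near 0.68 on the plus strand and a line near 0.11 on the minus strand, psbA and members with their own locus apart, while in CC5325 they scatter.

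The listed TPM of some members exceeded what the coverage of the same row gives, mostly in CC125. There 10 of 36 members above 0 had a TPM over 1.5 times TPM from coverage (27.8%), against 0.454% of all reference genes with coverage in that library and 3 of 32 other plastid genes (9.38%). In CC5325 the count was 1 of 36, atpF, against 0.159% of all and 3.45% of the other plastid genes. All 10 members in CC125 lay on the minus strand and had an assembled locus with the same start and end. The same held for the 3 other plastid genes, rps7 at 9.57 times, rps18 at 5.51 and the minus-strand icreI copy at 1.82. No other minus-strand plastid gene outside the members had an own locus there, so the excess is not particular to photosynthesis genes. Among the 16 members with an own locus in CC125, the 11 on the minus strand stood at 1.46 to 5.64 times TPM from coverage and the 5 on the plus strand at no more than 1.28 times. In the 20 without an own locus both values were equal to 3 digits.

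The excess was mostly larger where coverage was lower. psbE, at a coverage of 0.191, had a listed TPM 5.64 times that from coverage, and psbH, at 0.324, had 4.56 times. psaA exon 3 and psbJ, at 0.400 and 0.421, had 4.20 and 4.15 times, and atpB was out of this order with 3.93 times at 0.349. At the upper end of coverage, rbcL had 1.81 times at 4.05 reads per base and psbD 1.46 times at 8.11. In CC5325 no minus-strand member exceeded 1.01 times, and 8 of the 11 had an own locus there too, psbE, psaA exon 2 and atpB being the exceptions. For these 10 genes the listed TPM and the coverage therefore give different differences between the strains, and both are given below.

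**Figure D3:**
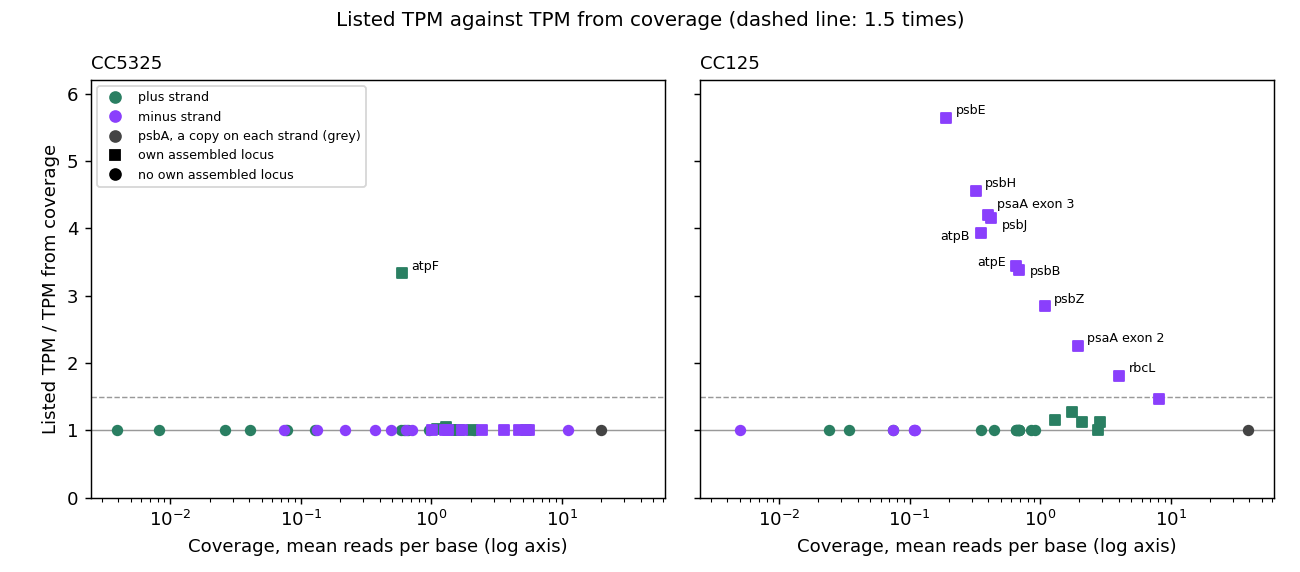
Listed TPM divided by TPM from coverage for each member, against coverage in reads per base (log axis), CC5325 on the left and CC125 on the right, with squares for members that have an own assembled locus and the dashed line at 1.5 times. In CC125 the minus-strand squares fall from 5.64 at psbE to 1.46 at psbD as coverage goes up, and in CC5325 atpF alone stands above the line, at 3.33.

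Photosystem II held 15 members, from the reaction centre to small membrane subunits, and 9 of them had at least 10 reads over both libraries. 3 of the 9 were at least 2-fold lower in CC5325 (psbA, psbD and psbC), 2 were at least 2-fold higher (psbE and psbH) and 4 lay within 2-fold. Among all 1426 reference genes that passed the same minimum, 5.12% were at least 2-fold lower in CC5325 and 59.3% higher. psbA stood at 7.84 TPM from coverage in CC5325 and 33.9 in CC125, 4.33-fold higher in CC125 (3.99 to 4.70). Reads of psbA were worked out over the whole gene span, an upper limit where that span holds introns. Its interval is then too narrow, and by how much was not tested. The copy at 47706 to 54473 had a coverage of 8.39 and 13.5 and the copy at 137977 to 144583 one of 11.6 and 25.6, ratios of 3.57 and 4.88 in favour of CC125. How reads that match either copy were divided is not known. psbD, for the D2 partner of D1, had a coverage of 4.71 in CC5325 and 8.11 in CC125. That is 3.82-fold higher in CC125 (2.54 to 5.71), or a log2 ratio of -2.48 on the listed TPM.

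The inner antenna proteins CP43 and CP47, which bind chlorophyll beside the reaction centre, are encoded by psbC and psbB. psbC had a coverage of 0.614 in CC5325 and 2.77 in CC125, from at most 8 and 37 reads. It was 9.99-fold higher in CC125 (4.70 to 25.5), and its listed TPM gives the same log2 ratio, -3.32. psbB went the other way on coverage, at 1.73 and 0.684, which leaves it within counting error of equality at a ratio of 1.14 (0.488 to 2.72). On the listed TPM psbB stood at 0.681 and 2.01, a log2 ratio of -1.56. Relative to each other, psbB had 2.81 times the coverage of psbC in CC5325 and 0.247 times in CC125. The change was smaller on the listed TPM, with psbB at 0.681 against 0.241 for psbC in CC5325 and 2.01 against 2.40 in CC125.

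psbE and psbF encode the subunits of the cytochrome of photosystem II. psbE (93463 to 93968, minus strand) had a coverage of 11.1 in CC5325, second to psbA, and 0.191 in CC125, from at most 37 reads and 1 read. Its ratio was 26.1 in favour of CC5325 with a counting interval of 2.82 to 677, and its listed TPM, 4.34 and 0.937, gives a log2 ratio of 2.21. The 1 read in CC125 is 0.645 rounded up, so the interval is not secure. With the common minus-strand level of 0.114 subtracted, a choice made after seeing the data, psbE would have 0.0771 in CC125. The lowest coordinate of the gene is also that of the minus-strand assembled locus of CC5325 at 93463 to 154152, listed at 18504 reads per base. The part of that locus in the difference was not tested. psbF had a coverage of 2.12 in CC5325 and 0.657 in CC125, the latter at the common plus-strand level, from at most 7 and 2 reads.

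Of the small subunits, psbH was the only other one past 2-fold in favour of CC5325. It had a coverage of 3.57 in CC5325 and 0.324 in CC125, a ratio of 4.97 (1.04 to 285) from at most 15 reads and 1 read. With the common minus-strand level subtracted, psbH would have 0.210 in CC125. The listed TPM of psbH was nearly equal, at 1.41 and 1.28. psbZ stood at 2.43 and 1.08 reads per base, a ratio of 1.01 (0.535 to 2.09), and psbJ at 1.33 and 0.421, a ratio of 1.43 (0.410 to 5.76). On the listed TPM the log2 ratios of psbZ and psbJ were -1.49 and -1.53. psbL had a coverage of 1.62 and 1.31, 1.78-fold higher in CC125 and within counting error. psbB, psbT and psbH follow each other on the minus strand, with psbN on the opposite strand between psbT and psbH. In CC5325 their coverages were 1.73, 0.133 and 3.57, so that psbT in the middle was 13.0-fold below psbB, and in CC125 they were 0.684, 0.107 and 0.324. The psbT span is 230 bases, and less than 1 read stood behind it in each library.

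psbK, psbM, psbN, psbI and psbT had under 10 reads over both libraries, as did psbF with 9.11. psbK was alike in coverage, at 0.955 and 0.906. psbI stood at 0.0264 in CC5325 and 0.661 in CC125, and psbN at 0.128 and 0.686, both at the common plus-strand level of CC125. No difference is read from these 5 or from psbF.

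Photosystem I was represented by psaB, psaC, psaJ and the exons of psaA. psaA and psaB encode the paired reaction-centre proteins and psaC the subunit that holds the terminal iron-sulfur clusters. In this alga psaA is split into 3 exons at separate places on the plastid genome, whose transcripts are joined by trans-splicing. Exon 1 had a coverage of 1.54 in CC5325 and 0.354 in CC125, exon 2 one of 0.643 and 1.94, and exon 3 one of 1.26 and 0.400. The exons thus did not keep one order between the libraries, but exons 1 and 2 span 226 and 180 bases and rest on at most 2 reads per library each. From these few reads, the listed TPM of exon 2 was 0.252 in CC5325 and 3.79 in CC125. Exon 2 lies next to psbD, with which it is transcribed, and both had a higher coverage in CC125. Exon 3, with at most 17 and 5 reads, was within counting error at a ratio of 1.42 (0.543 to 5.32), against a log2 ratio of -1.55 on the listed TPM.

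psaB had a coverage of 0.584 in CC5325 and 0.684 in CC125, the latter at the common plus-strand level. Its ratio of 2.60 in favour of CC125 is past the 2-fold rule, but 0.684 is no higher than the value of rps3 and rpoC2, which encode no photosynthetic protein. psaC had a coverage of 1.29 and 0.845, 1.45-fold higher in CC125 (0.357 to 4.80). Counted by complex, 1 of the 3 members of photosystem I with at least 10 reads was past 2-fold, namely psaB.

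The cytochrome b6f complex had low coverage in both libraries. Its 5 members, petA for cytochrome f, petB for cytochrome b6, petD for subunit IV and the small petG and petL, made up 2.68% of the summed coverage of all members in CC5325 and 1.65% in CC125. petA alone had at least 10 reads, at a coverage of 1.104 and 0.447, a ratio of 1.11 (0.283 to 4.51). petD had 0.661 and 0.0746 and petB 0.216 and 0.0740, from at most 4 reads in any library. These 3 lie outside the large loci. petG, inside them, had 0.00390 in CC5325 and 0.657 in CC125, at the common level.

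Of the 6 ATP synthase genes, 5 had at least 10 reads and all 5 had a ratio below 1, CC5325 over CC125, with 2 of them 2-fold lower against 5.12% of all genes. This direction depends on the scale. In raw coverage atpE, atpH and atpB were 1.53, 1.84 and 2.04 times as high in CC5325, and the median log2 ratio of the 5, -0.54, became 0.61 on raw coverage. atpA, atpH and atpF lie together on the plus strand with psbI and cemA between atpA and atpH. atpA, for the alpha subunit of the catalytic head, had almost equal coverage, 2.06 in CC5325 and 2.10 in CC125, which the scale turns into a value 2.26-fold higher in CC125 (1.34 to 3.92). atpH had 5.33 and 2.90, 1.21-fold higher in CC125 (0.724 to 2.05). atpF, for the peripheral stalk, had 0.596 and 1.76, 6.55-fold higher in CC125 (2.78 to 15.0). It is the one member whose listed TPM exceeded coverage in CC5325, so that the listed TPM of 0.777 and 1.95 gives a log2 ratio of -1.33.

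The coverage along this cluster had a different shape in each library. In CC5325 it went from 2.06 at atpA to 0.0264 at psbI and 0.0773 at cemA, then to 5.33 at atpH and 0.596 at atpF. In CC125 it went from 2.10 to 0.661 and 0.690, then to 2.90 and 1.76, so the lowest genes stood at the common level and no lower. Relative to atpA, atpH had 2.59 times the coverage in CC5325 and 1.38 times in CC125, and atpF 0.289 and 0.837 times. On the listed TPM atpF was close to atpA in both libraries, at 0.777 against 0.810 in CC5325 and 1.95 against 2.06 in CC125.

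The remaining ATP synthase genes lie on the minus strand. atpB, for the beta subunit, had a coverage of 0.714 and 0.349 and atpE, for the epsilon subunit, 1.005 and 0.657. Their ratios of CC5325 over CC125 were 0.922 (0.283 to 4.51) and 0.689 (0.201 to 3.68), whereas the listed TPM gives log2 ratios of -2.09 and -2.32. atpI, for the proton channel subunit, had 0.487 in CC5325 and 0.00502 in CC125, from at most 4 reads and less than 1 read.

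rbcL had a coverage of 5.55 in CC5325 and 4.05 in CC125. That is 1.62-fold higher in CC125 (1.06 to 2.43), and its listed TPM of 2.17 and 6.36 gives a log2 ratio of -1.55. Against rbcL within each library, psbA had 3.61 times the coverage in CC5325 and 9.64 times in CC125, and psbD 0.849 and 2.0 times. Both changes were smaller on the listed TPM, where psbA stood at 7.84 and 33.9 and psbD at 1.85 and 10.3.

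chlB, chlL and chlN encode the light-independent enzyme that makes chlorophyllide in the dark, an enzyme that most flowering plants lack. All 3 had low coverage in CC5325, at 0.00811, 0.0776 and 0.0405. In CC125 chlB and chlL, outside the large loci, stood at 0.0341 and 0.0243, and chlN, inside, at 0.672. chlN therefore passed the 2-fold rule as a gene at the common level, with a log2 ratio of -5.20. ccsA, which attaches heme to c-type cytochromes, had 0.0744 and 0.108, and cemA, an envelope protein, 0.0773 and 0.690.

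Over the 20 members with at least 10 reads, 7 were at least 2-fold lower in CC5325 on the coverage scale (35%) and 2 were at least 2-fold higher (10%). The background shares were 5.12% and 59.3% over all reference genes and 4.23% and 60.4% over the nuclear ones. CC5325 had more reads in reference genes, at most 108004 against 34287, and the part of this depth gap in the background shares was not tested. The 7 lower members were psbA, psbD, psbC, psaB, atpA, atpF and chlN. The median log2 ratio of the 20 was -0.54, with members from -5.20 to 4.71, against 1.28 over all genes and -2.20 over the 6 other plastid genes that passed. Of those 6, 5 were at least 2-fold lower in CC5325 (83.3%), but rps3 and rpoC2 among them stood at the common level of CC125 and icreI is counted as 2 copies. Equality lay outside the counting interval of the 9 members past 2-fold and of rbcL. The interval is not used for psaB and chlN, which stood at the common level of CC125. Because mates of a pair are counted apart, the intervals are too narrow. Those of psbH, from 1.04 in favour of CC5325, and rbcL, from 1.06 in favour of CC125, begin close to equality and give no secure difference. psbE and psbH each rest on about 1 read in CC125.

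On the listed TPM the same 20 members looked more uniform. 15 of them were at least 2-fold lower in CC5325 (75%) and 1 was higher (5%), against 5.82% and 59.5% of all reference genes, 4.3% and 60.6% of the nuclear ones, and 100% lower among the 6 other plastid genes. Of the 10 members with a TPM over 1.5 times TPM from coverage in CC125, 9 had at least 10 reads. None of the 9 was 2-fold lower on coverage, where their median log2 ratio was 0.19, and 7 were on the listed TPM, where it was -1.55. The other 11 members had medians of -1.38 on coverage and -1.35 on the listed TPM, with 7 of them 2-fold lower on coverage.

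**Figure D4:**
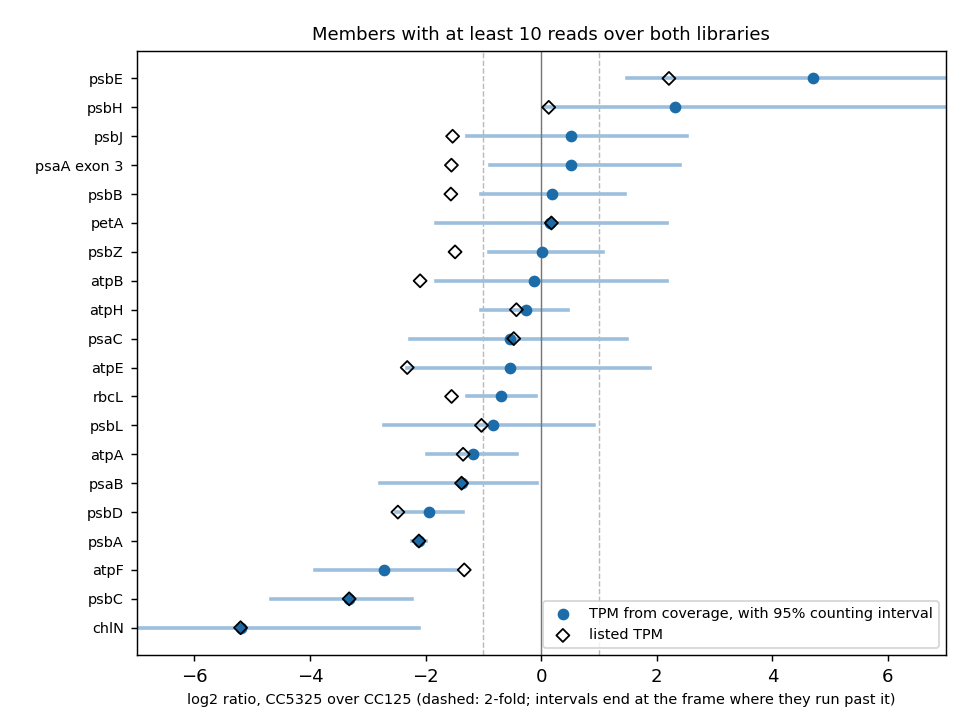
log2 ratio of CC5325 over CC125 for the 20 members with at least 10 reads over both libraries, from coverage (blue points, bars for the 95% counting interval, not used in the text for psaB and chlN) and from the listed TPM (open diamonds), with dashed lines at 2-fold. psbE and psbH lie past 2-fold on the right by coverage, and psbJ, psaA exon 3, psbB, psbZ, psbL, rbcL, atpB and atpE move from within 2-fold by coverage to past 2-fold on the left by the listed TPM.

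Most directions between the strains depended on the scale chosen between the libraries. On raw coverage, with no scaling, 8 members were at least 2-fold higher in CC5325 and 3 lower, and 13 of 20 had the higher coverage in CC5325. On each member's share of the summed coverage the counts were also 8 and 3. With the median of the nuclear genes set to 0 they were 2 and 16, and with the median of the other plastid genes set to 0 they were 14 and 2. The share of all reference genes past 2-fold was not worked out on these scales. The counts therefore show how members move with the scale, and not how they differ from other genes. Of the 7 members lower in the main comparison, psbA, psbD, atpA and psaB crossed equality under at least 1 scale. So did rbcL, with log2 ratios from -2.01 to 1.503, and atpH, from -1.58 to 1.93. psbC, atpF and chlN were lower in CC5325 under all 8 scalings tried, and psbE and psbH higher, psbH by only 0.13 on the log2 scale with the listed TPM. Most of these scalings shift all genes alike, so the kept signs reflect the size of the ratios and are no independent support. psbC, atpF and chlN reached 10 reads in CC125 alone, and psbE and psbH in CC5325 alone. Each thus met the read minimum through the library where it was higher. psbC kept a log2 ratio between -4.63 and -1.12 over these scalings and psbE one between 2.21 and 6.91.

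Ratios of members inside and outside the large assembled loci overlapped. The median log2 ratio was -0.62 over 14 members inside and -0.33 over 6 outside, a difference of -0.29 that became 0.38 on the listed TPM. Inside the loci the medians differed by strand. The 6 on the plus strand had a median of -1.28, with all 6 below 0, and the 7 on the minus strand, psbA apart, a median of 0.19 with 2 below 0. On the listed TPM those medians were -1.34 and -1.55. Of the 6 plus-strand members, psaB and chlN stood at the common level of CC125. With that level subtracted in CC125, a choice made after seeing the data, psbL stood at 0.26 and atpH at 0.13, and atpA (-0.60) and atpF (-1.99) alone stayed below 0, while chlN no longer met the read minimum. In coverage itself, members inside had a median of 1.13 in CC5325 and 0.678 in CC125, and members outside 0.652 and 0.352.

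Nuclear genes for subunits and carriers of the same pathway are given for comparison. Of 32 listed genes, all found in the files, 28 had at least 10 reads. Past 2-fold were 10 in favour of CC5325 and 1 in favour of CC125, and 17 lay within 2-fold. The median log2 ratio was 0.46, below the median of 1.31 over all nuclear genes, of which 60.4% were past 2-fold in favour of CC5325 and 4.23% in favour of CC125.

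The 6 genes of highest mean level all lay within 2-fold. RBCS2 and RBCS1, the small subunit partners of rbcL, had a coverage of 19.1 and 3.96 in CC5325 and 7.05 and 2.77 in CC125. FDX1, for ferredoxin, stood at 5.28 and 4.19 and PCY1, for plastocyanin, at 6.14 and 1.51. PSBR1, of photosystem II, stood at 6.23 and 2.64 and ATPG1, of the ATP synthase, at 4.13 and 2.96. The next genes were chosen after their values were seen. ATPD1, a subunit of the ATP synthase head, was the 1 in favour of CC125, at 1.81 and 2.06, 2.52-fold higher there. PSBO1, of the water-splitting complex, stood furthest the other way at 7.86 and 0.162, 21.9-fold higher in CC5325 (6.59 to 96.8) from at most 131 and 3 reads. PSBQ1, of the same complex, was 7.38-fold higher in CC5325, and PSAG1, of photosystem I, had at most 48 reads there and was listed at 0 in CC125. The median coverage of the 32 genes was 2.29 and 0.595, beside 0.687 and 0.657 for the plastid members.

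Nuclear factors that act on single plastid transcripts had almost no reads. Of 21 listed, 19 were found in the files, 15 were above 0 in CC5325 and 3 in CC125, where 9438 and 3748 of all 17693 reference genes were above 0. The one with at least 10 reads was MRL1, needed for a stable rbcL transcript, at a coverage of 0.159 and 0.0292 from at most 9 and 2 reads. It was 2.45-fold higher in CC5325, past the 2-fold rule, but with a counting interval of 0.420 to 19.3 that holds equality. TAB2, needed for translation of psaB, and NAC2, needed for the psbD transcript, had 0.278 and 0.0891 in CC5325. TDA1 and MDA1, which act on atpA, had 0.0826 and 0.0741 there, and these 4 stood at 0 in CC125. MTHI1, which acts on ATP synthase transcripts, had 0.141 and 0.0158. For the factors with fewer than 10 reads no difference is read at this depth.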

How the data were processed

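The labels' protocols describe Trizol extraction of total RNA, depletion of ribosomal RNA and 150 base paired ends. The submitters' processing notes name StringTie 2.2.3, HISAT2 2.2.1, FastQC 0.12.1 and Trimmomatic, and no settings are given. The deposited tables list per gene the coverage signal (mean reads per base), FPKM (per 1000000 fragments) and TPM, which sums to 1000000 over the assembled rows alone. Identifiers carry the CC-4532 version 6.1 annotation, and coordinates are those of the files.

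TPM from coverage multiplies coverage by the median, over reference genes of that library, of TPM divided by coverage. Reads are coverage times span over 150 bases, an upper limit where spans hold introns, and mates of a pair count as separate reads. Ratios were computed over all reference genes, with at least 10 reads over both libraries, 3 reads standing for a value of 0, and 2-fold as the rule. Counting intervals are exact binomial (Clopper-Pearson) on these reads, and too narrow where introns or paired mates inflate them. Members, lists and measures were chosen with earlier results of these data known. Named are all members and, by highest mean, 6 genes of each nuclear list, with others said to be chosen after their values were seen. The alternatives tried are given in the closing section. Scripts were tested on simulated data. Versions were matplotlib 3.10.9, scipy 1.17.1, pandas 2.3.3, numpy 2.4.6 and Python 3.11.15.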

Additional observations from a re-analysis of the deposited data

How the results depend on the processing

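No paired analysis was possible because each strain has 1 library, and for the same reason no replicate could be left out. The main counts over 20 members were 7 lower and 2 higher in CC5325. Lower and higher counts were 15 and 1 with the deposited TPM, 14 and 1 with the deposited FPKM, 3 and 8 on raw coverage, and 3 and 8 on the share of summed member coverage. They were 2 and 14 with the other plastid median set to 0 and 4 and 1 with a pseudocount of 1 TPM. The nuclear median set to 0 gave 16 lower. Other filters changed the number of members. No filter gave 15 and 4 over 36 members, and a mean of at least 1 TPM gave 4 and 1 over 7. At least 20 reads gave 6 and 1 over 12. Shares over all reference genes were worked out for the main scale and the deposited TPM alone.

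The median log2 ratio of members, -0.54, was -1.51 with the deposited TPM, -1.85 with the nuclear median set to 0, 0.61 on raw coverage, 0.65 on the share and 1.66 with the other plastid median set to 0. For photosystem II, 0.014, it was -1.53 with the deposited TPM, -1.25 with FPKM, -1.30 with the nuclear median set to 0, -0.84 with no filter, -0.96 with at least 20 reads, -2.02 with a mean of at least 1 TPM and -0.41 with the psbA copies apart. For photosystem I, -0.53, it was -1.38 with the deposited TPM, -1.84 with the nuclear median, 0.61 on raw coverage, 0.65 on the share and 1.66 with the other plastid median. For the ATP synthase, -0.54, it was 0.61, 0.65 and 1.66 on the last 3 of these scales.

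The inside minus outside difference, -0.29, was 0.38 with the deposited TPM or FPKM, 2.14 with at least 20 reads, 1.93 with a mean of at least 1 TPM, -0.0018 with a smaller minimum length of the loci, -0.86 with no filter and, chosen after seeing the data, -0.58 with the psaA exons merged. With the other plastid median set to 0, psbA (0.084), psbD (0.27), atpA (1.02) and psaB (0.82) crossed equality, as did rbcL (1.503) and atpH (1.93), and atpA (0.0041) did so on the share. rbcL and atpH also crossed on raw coverage (0.45 and 0.88) and on the share (0.49 and 0.91).

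Chosen after seeing the data, subtracting the common CC125 level gave 4 lower over 19 members and a median of 0.13 for all of them. It gave 0.64 for psaB and so for photosystem I, where psaB fell to 0 in CC125 and 3 reads stand for it. The inside minus outside difference was then 0.50. Leaving out psbE gave 1 higher over 19 members and a photosystem II median of -0.41. Leaving out the 10 members with excess TPM gave 0 higher over 11 members and a photosystem II median of -2.02. The causes were not tested beyond what each alternative changes. The counts of members with excess TPM were 9 to 15 in CC125 and 1 in CC5325 over the settings tried. Depth limits 23 members to under 10 reads in each library.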
